A study of Mus musculus with 25 samples.

Results

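Of the 45672 merged peaks of open chromatin in cultured mouse astrocytes, 6196 (13.6%) lay in the long stretches between protein-coding promoters. A peak was taken when its nearer edge was over 100 kb from the transcription start site (TSS) of every protein-coding gene in the mm10 GENCODE annotation, when it was wider than 250 bp, and when it lay on chromosomes 1 to 19. The rule used position and width and no difference between groups. Width goes with signal, with a median of 331 bp in the lowest and 691 bp in the highest of 4 equal bins of Control level, so levels are not independent of the rule. It was set against the 2 other distance classes of the 40647 peaks over 250 bp on these chromosomes, 15796 promoter peaks within 3 kb of a TSS and 18655 distal peaks between 3 and 100 kb. A further 934 peaks past the distance limit were 250 bp or narrower and were left out.

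The signal was ATAC-seq, in which a transposase cuts and tags accessible DNA, and each value is an rlog value, a log2 read count that was scaled for depth and shrunken for weakly covered peaks. The cells were primary astrocytes from the cerebral cortex of wild-type C57BL/6J mice at P5-P6, grown with 10 ng/ml EGF plus 10 ng/ml bFGF (EGF+bFGF culture) or with 10 ng/ml bFGF alone (bFGF culture). All groups were transduced with retroviral vectors that act in dividing cells and drive their insert from the CAG promoter. Each vector carried only a fluorescent protein (Control), or Neurog2 or Hmgb2 with such a reporter. The paper lists no vector with both factors and describes co-transduction with a Neurog2 and an Hmgb2 vector (Neurog2+Hmgb2). That group therefore also differs from the others in the number of vectors and reporters. The transduced cells were sorted 48 h later. Each of the 8 groups had 3 libraries, except the EGF+bFGF Hmgb2 group with 4, which gives 25 libraries. Whether the libraries of one group stem from different animals is not in the labels, and the spread behind each p-value may be technical. As the cells were measured in bulk, a larger share of cells with an open site and a site more open in each cell cannot be told apart.

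Gene deserts are long stretches of chromosome with few or no protein-coding genes, and those beside developmental genes often hold enhancers that contact their promoter by looping of the DNA. Neurog2 is a proneural transcription factor of the basic helix-loop-helix family that binds E-boxes (CANNTG) and directs progenitors of the cortex to become neurons. Hmgb2 is a chromatin protein that bends DNA without a preference for a particular sequence, and AP-1 is the dimer of Fos and Jun proteins that follows growth factor signalling and binds TGANTCA.

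The following 250-base windows at the centres of 7 members are shown because the text below refers to their letters. They are from the GRCm38 (mm10) reference, plus strand, and capitals mark CAGATG or its reverse complement CATCTG, the E-box most common among the opened sites, and matches to TGANTCA on either strand. The first 4 windows have the E-box without AP-1, and the last 3 have both.
4931417E11Rik site, chr6:73645018-73645267: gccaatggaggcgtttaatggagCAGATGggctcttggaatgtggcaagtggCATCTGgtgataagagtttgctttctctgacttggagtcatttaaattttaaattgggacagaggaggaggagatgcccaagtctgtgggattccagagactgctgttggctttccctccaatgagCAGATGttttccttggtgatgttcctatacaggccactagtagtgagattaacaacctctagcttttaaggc
Grm7 site, chr6:111866246-111866495: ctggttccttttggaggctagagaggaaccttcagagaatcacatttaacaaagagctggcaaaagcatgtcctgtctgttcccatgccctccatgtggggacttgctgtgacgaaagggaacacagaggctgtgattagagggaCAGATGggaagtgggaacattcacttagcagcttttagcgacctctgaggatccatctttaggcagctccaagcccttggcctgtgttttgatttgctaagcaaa
Kcnip4 site, chr5:49150462-49150711: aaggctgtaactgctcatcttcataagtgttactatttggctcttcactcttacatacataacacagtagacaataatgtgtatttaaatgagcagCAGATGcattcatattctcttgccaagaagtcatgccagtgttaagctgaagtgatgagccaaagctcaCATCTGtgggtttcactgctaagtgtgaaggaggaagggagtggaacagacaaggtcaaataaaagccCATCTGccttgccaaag
Dll1 site, chr17:15248006-15248255: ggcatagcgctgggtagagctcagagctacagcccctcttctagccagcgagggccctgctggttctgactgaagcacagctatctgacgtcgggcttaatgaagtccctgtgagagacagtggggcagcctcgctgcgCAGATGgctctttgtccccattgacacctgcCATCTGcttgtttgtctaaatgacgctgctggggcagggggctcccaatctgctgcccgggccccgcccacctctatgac
Celf2 site, chr2:8498642-8498891: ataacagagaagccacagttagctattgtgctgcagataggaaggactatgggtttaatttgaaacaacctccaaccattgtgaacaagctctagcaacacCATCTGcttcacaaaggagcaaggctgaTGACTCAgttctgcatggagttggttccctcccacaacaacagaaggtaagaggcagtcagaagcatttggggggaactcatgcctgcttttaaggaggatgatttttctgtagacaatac
Ncam2 site, chr16:80272661-80272910: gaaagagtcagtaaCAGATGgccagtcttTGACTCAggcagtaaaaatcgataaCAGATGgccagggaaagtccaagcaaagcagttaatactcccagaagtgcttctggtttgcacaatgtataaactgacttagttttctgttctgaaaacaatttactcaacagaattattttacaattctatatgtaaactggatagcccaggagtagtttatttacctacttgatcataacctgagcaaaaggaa
Ppp1r3a site, chr6:14409880-14410129: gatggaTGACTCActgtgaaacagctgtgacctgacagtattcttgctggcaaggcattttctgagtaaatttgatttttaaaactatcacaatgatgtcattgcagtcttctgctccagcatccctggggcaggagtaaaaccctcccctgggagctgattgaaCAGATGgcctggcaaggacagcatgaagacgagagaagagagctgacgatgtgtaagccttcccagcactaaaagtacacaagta

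Each site is called by the nearest protein-coding TSS. This is a name only, and no target gene was measured. The distance to that TSS had a median of 208 kb (quartiles 140.0 and 352 kb), and 2953 members lay within 200 kb, 2398 from there to 500 kb and 845 beyond. Of the 172 members over 1 Mb away, the farthest were the sites of the protocadherin genes Pcdh9 (chr14:91326774-91327056, 2559 kb), Pcdh20 (chr14:90889757-90890034, 2418 kb) and Pcdh17 (chr14:82243338-82243869, 2200 kb), which encode adhesion molecules of neurons. The members filled 1465 intervals between neighbouring TSSs and had 1870 nearest genes. There were 363 intervals with a single member and 105 with over 10.

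The distance limit did not always place a member outside genes. A total of 4054 members (65.4%) were outside every annotated gene, 1181 (19.1%) were in an intron of a protein-coding gene and 15 overlapped an exon of one. A further 630 (10.2%) lay in the body of a non-coding gene and 316 (5.10%) within 1 kb of a non-coding TSS. For the 1196 members inside a long protein-coding gene, such as the Kcnip4 site, the name gene desert does not hold, and they are described here by the distance rule. Just inside the limit was a site in an intron of Ldlrad3 (nearest TSS Commd9, chr2:101986265-101986746, 100002 bp, mean level 4.55), and just outside it a site near Scaf8 (chr17:3014563-3014975, 99997 bp, mean level 3.94).

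The members were weakly accessible. Their mean level over the 25 libraries had a median of 4.24 (quartiles 3.70 and 4.84) on the rlog scale, against 4.38 for distal and 5.76 for promoter peaks. Only 59 members were over 7, and 79.5% were under 5, as were 75.1% of distal and 29.5% of promoter peaks. They were narrow, with a median width of 445 bp against 464 and 829 bp. After division by width their median was 5.42 per kb on the log2 scale, against 5.51 and 5.99 for the other classes, so most of the gap to the promoters went with width. Their sequence was poorer in GC, with a median of 46.8% against 50.4% and 64.4%, and in CpG, with 0.17 of the number expected from their base composition against 0.21 and 0.69.

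The order of the 3 classes was the same in every library. The median over the members ran from 4.11 to 4.38 among the libraries, that of distal peaks from 4.32 to 4.46 and that of promoter peaks from 5.62 to 5.87. The group means of the member medians were 4.19 ± 0.07 in EGF+bFGF Control (SD, n = 3), 4.22 ± 0.08 with Neurog2, 4.29 ± 0.11 with Neurog2+Hmgb2 and 4.31 ± 0.06 with Hmgb2 (n = 4). In bFGF they were 4.21 ± 0.07, 4.20 ± 0.07, 4.28 ± 0.06 and 4.26 ± 0.10 in the same order (n = 3 each). The lowest EGF+bFGF Hmgb2 library lay just above the highest Control library of that culture, both at 4.25 when rounded, and these differences were not tested. The gap between promoters and members varied from 1.24 to 1.76 between single libraries.

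**Figure D1:**
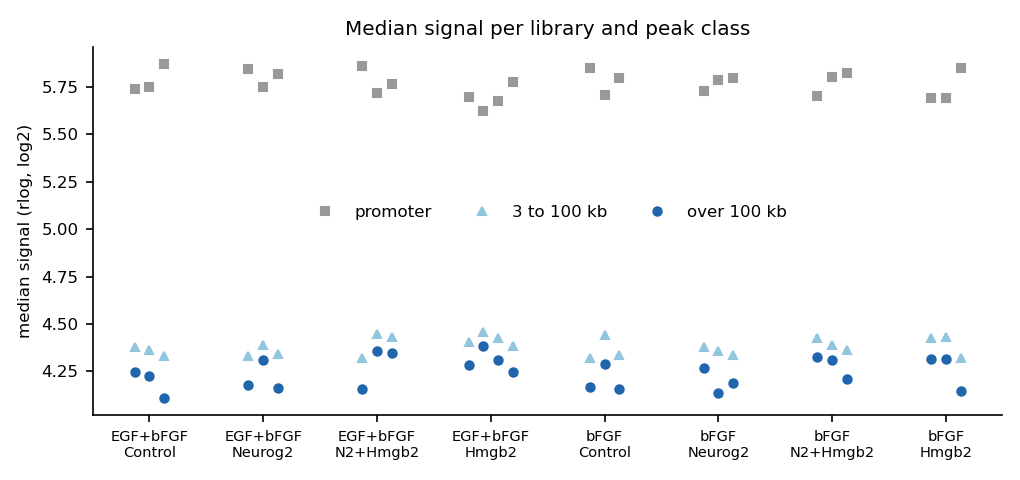
Median rlog signal (y axis, log2) of each library in the 8 groups (x axis), with 1 point per library for promoter peaks, peaks 3 to 100 kb away and peaks over 100 kb away. The members (over 100 kb) lie between 4.11 and 4.38 and are the lowest class in all 25 libraries.

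A few members stood far above the others. The highest was a Galc site (chr12:97061378-97061842, mean level 15.96), followed by the sites of Rab10 (chr12:3109816-3110189, 14.58), Esp38 (chr17:39842942-39848886, 14.23), Tyrp1 (chr4:80002374-80004546, 13.81) and Nxph1 (chr6:9889862-9890205, 13.60). The Galc, Tyrp1 and Nxph1 sites matched the mitochondrial genome, the Rab10 site was 81.8% repeat-masked, and the Esp38 site covered the start of the non-coding gene Gm26917. At the Galc site the libraries ran from 13.40 to 17.88, and the groups overlapped in every comparison. In all, 5 members matched mitochondrial DNA, none matched the coding sequence of Neurog2 or Hmgb2, and 97 were at least 95% identical over at least 80% of their length to another peak, so that reads could have been assigned to either copy. Of these, 20 lay in the interval with the most members, 29 within 248 kb on chromosome 8 between Gm15319 and Gm31371. The lowest members were sites of Cntn6 (chr6:104236246-104236584, 1.67) and Aga (chr8:51447751-51448005, 1.80).

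Whole-table checks bear on what follows. The library medians over all peaks ran from 4.56 to 4.67, and the second bFGF Neurog2 library differed most from its own group (mean r 0.936). The exonic Neurog2 peak read 10.6 to 16.1 in the 12 libraries with Neurog2 and 6.76 to 12.7 in the 13 without, with overlap. Of 10 astrocyte markers 8 had a promoter peak, with levels of 5.21 to 7.01 (median 5.75), and of 6 neuron markers 4 did, with levels of 5.33 to 6.70 (median 6.17), so promoter signal did not single out astrocytes. The oligodendrocyte lineage (4 of 5 markers, 2.77 to 5.31), microglia (2 of 5, 4.14 to 4.16), endothelium (1 of 4, 4.43) and mural cells or fibroblasts (3 of 5, 4.73 to 5.34) were lower in most markers. Averaged over the 13 peaks matching the Hmgb2 coding sequence, signal ran from 5.69 to 9.81 where a vector held Hmgb2 (13 libraries). It ran from 4.12 to 5.31 elsewhere (12 libraries), without overlap. The part of other cells in the results below was not tested.

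The first question was which distant sites responded to Neurog2 and to Neurog2+Hmgb2 in each culture. A peak was called more accessible (a MAS) or less accessible (a LAS) when its log2 difference from Control was beyond 1 with a Benjamini-Hochberg adjusted p under 0.05 in limma, over all 45672 peaks, and no member was filtered out. In the EGF+bFGF culture, Neurog2 gave 123 MASs (1.99% of members) and 2 LASs, where 0.766% and 0.0963% of all peaks were called. Neurog2+Hmgb2 gave 119 MASs (1.92%) and 2 LASs, where 0.698% and 0.0372% of all peaks were called. In the bFGF culture, Neurog2 gave 22 MASs (0.355%) and 1 LAS, where 0.131% and 0.0285% of all peaks were called. Neurog2+Hmgb2 gave 69 MASs (1.11%) and no LAS there, where 0.429% and 0.0328% of all peaks were called.

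In each of the 4 comparisons the share of members called MAS was above that of distal peaks (1.08%, 0.943%, 0.172% and 0.557% in the same order) and of promoter peaks (0.139%, 0.133%, 0.038% and 0.114%). These shares are a description, and the difference between classes was not tested. The members were 13.6% of all peaks and 35.1% of the 350 Neurog2 MASs in EGF+bFGF, 37.3% of the 319 of Neurog2+Hmgb2 there, 36.7% of the 60 of Neurog2 in bFGF and 35.2% of the 196 of Neurog2+Hmgb2. The median difference over all members was close to 0, at -0.03, 0.03, -0.03 and 0.03. The libraries of the groups did not overlap at 123 of 123, 118 of 119, 22 of 22 and 69 of 69 MASs. With 3 libraries in each of these groups a call nearly fixes this, so it adds no support. It was not counted over all peaks. The MAS differences reached from 1.00 to 2.01, with medians from 1.09 to 1.15.

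With no limit on the size of the difference, an alternative chosen after the data were seen, more members passed the same limma test, and gains still outnumbered losses in each of the 4 comparisons. In EGF+bFGF 487 members were higher with Neurog2 (7.86%, where 3.94% of all peaks were) and 102 lower (1.65%, where 1.07% were). With Neurog2+Hmgb2 there 509 were higher (8.21%, where 3.97% were) and 68 lower (1.10%, where 1.07% were). In bFGF 109 were higher with Neurog2 (1.76%, where 0.898% were) and 47 lower (0.759%, where 0.353% were). With Neurog2+Hmgb2 there 356 were higher (5.75%, where 2.59% were) and 37 lower (0.597%, where 0.464% were).

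**Figure D2:**
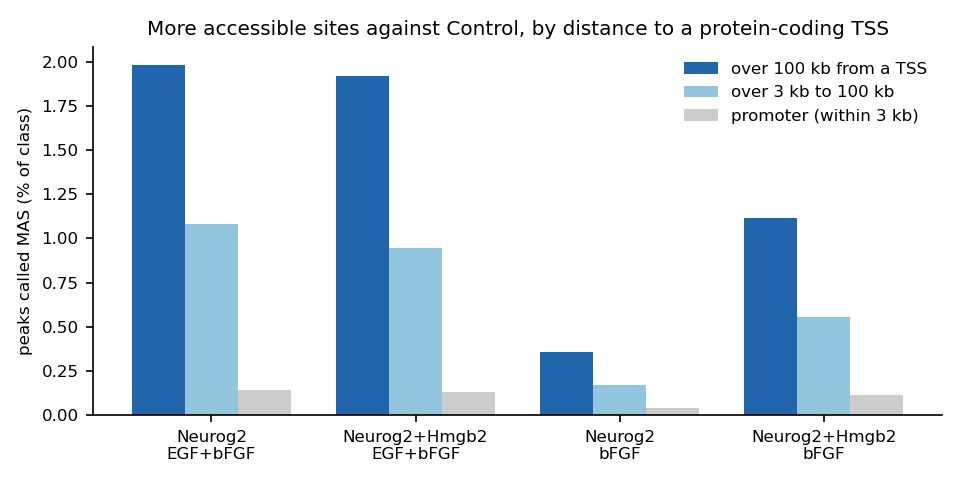
Share of peaks called MAS (y axis, % of the class) in the 4 comparisons with Control (x axis), with 1 bar for each distance class. The bars of the peaks over 100 kb away are the highest in each comparison, at 1.99%, 1.92%, 0.355% and 1.11%.

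Single libraries moved some of these counts. Without EGF+bFGF Neurog2 replicate 3 the Neurog2 count rose to 199 MASs. Without Neurog2+Hmgb2 replicate 1 of that culture the Neurog2+Hmgb2 count was 196, and without replicate 3 it was 65. The 22 MASs of Neurog2 in bFGF became 46 without Neurog2 replicate 2, the library with r 0.936 above, 34 without Neurog2 replicate 1 and 14 without Control replicate 1. The 69 MASs of Neurog2+Hmgb2 in bFGF became 114 without Neurog2+Hmgb2 replicate 1. In the 6 fits that each left out 1 library of the groups compared, the Neurog2 count ran from 14 to 46 in bFGF. In the 6 such fits of EGF+bFGF it ran from 105 to 199. These are separate fits, and the 2 counts were not compared within one of them.

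The largest gain was at the 4931417E11Rik site (chr6:73644489-73645797, 175 kb away, outside all genes), whose window begins the sequences above with 3 copies of CAGATG. In EGF+bFGF it read 5.36, 5.31 and 4.64 in Control, 7.12, 7.27 and 6.94 with Neurog2, 6.94, 6.70 and 7.38 with Neurog2+Hmgb2, and 5.41, 5.19, 4.75 and 4.97 with Hmgb2. In bFGF it read 4.94, 5.26 and 5.79 in Control, 6.69, 5.81 and 6.66 with Neurog2, 6.24, 6.81 and 6.44 with Neurog2+Hmgb2, and 5.34, 5.20 and 5.75 with Hmgb2. Every library with Neurog2 was above every library without it, by the narrowest margin in bFGF. The difference of Neurog2 from Control was 2.01 ± 0.24 in EGF+bFGF (SE, limma adjusted p = 1.91e-05) and 1.06 ± 0.24 in bFGF (adjusted p = 0.0253). The call in bFGF was lost without Control replicate 1 or 2 or Neurog2 replicate 1 or 3, where the difference was 0.86, 1.03, 0.91 and 0.92. The gain with Neurog2+Hmgb2 there, 1.17 ± 0.24, was no longer called without Control replicate 1 (0.97) or Neurog2+Hmgb2 replicate 2 (1.01).

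The site of Grm7, a metabotropic glutamate receptor of synapses, lay 370.2 kb from its TSS (chr6:111865922-111866821). In EGF+bFGF it read 4.37, 5.19 and 4.62 in Control, 6.35, 6.36 and 6.07 with Neurog2, 5.76, 6.13 and 6.42 with Neurog2+Hmgb2, and 4.53, 4.47, 4.20 and 4.56 with Hmgb2. In bFGF it read 4.45, 4.47 and 4.75 in Control, 5.73, 4.91 and 6.23 with Neurog2, 5.91, 6.20 and 6.41 with Neurog2+Hmgb2, and 4.65, 4.41 and 4.89 with Hmgb2. The groups with Neurog2 did not overlap those without it inside either culture, although the lowest bFGF Neurog2 library, at 4.91, was just above the highest Hmgb2 library there, at 4.89. The differences from Control were 1.53 ± 0.24 and 1.38 ± 0.24 in EGF+bFGF, and 1.06 ± 0.24 and 1.61 ± 0.24 in bFGF, for Neurog2 and Neurog2+Hmgb2. In limma the adjusted p of the bFGF Neurog2 difference was 0.0213, and that call was lost without Control replicate 1 or 2 (1.01 and 1.02) or Neurog2 replicate 3 (0.76). A second Grm7 site (chr6:111733788-111734328, 238 kb) gained 1.14 ± 0.15 with Neurog2 and 1.11 ± 0.15 with Neurog2+Hmgb2 in bFGF, and 0.76 ± 0.15 and 0.78 ± 0.15 in EGF+bFGF, below the limit of 1. Both lay in the interval between Grm7 and Lmcd1, which held 6 members.

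There were 12 members called MAS in all 4 comparisons, a count that rests partly on the shared Control libraries. Among those with the largest pooled difference were the sites of 4931417E11Rik, Arl6ip6, Grm7, Ncam2, Ppp1r3a and Celf2. The Celf2 site, 989 kb from the TSS of this RNA-binding splicing regulator (chr2:8498475-8499059), was the most distant of the 6. In EGF+bFGF it read 4.01, 4.19 and 3.50 in Control, 5.19, 5.39 and 4.98 with Neurog2, 5.25, 5.14 and 5.59 with Neurog2+Hmgb2, and 4.00, 3.68, 3.74 and 3.77 with Hmgb2. In bFGF it read 3.78, 3.56 and 3.74 in Control, 4.85, 5.11 and 4.99 with Neurog2, 5.32, 5.32 and 5.04 with Neurog2+Hmgb2, and 4.35, 3.80 and 4.17 with Hmgb2. Its gain was of like size in both cultures, with differences of 1.29 ± 0.18 and 1.42 ± 0.18 in EGF+bFGF and of 1.29 ± 0.18 and 1.53 ± 0.18 in bFGF.

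The site of Ncam2, a cell adhesion molecule of axons, lay 928 kb from its TSS (chr16:80272431-80273141). In EGF+bFGF it read 3.80, 4.03 and 3.71 in Control, 5.29, 4.96 and 4.62 with Neurog2, 5.35, 5.02 and 5.49 with Neurog2+Hmgb2, and 4.07, 3.88, 3.53 and 3.71 with Hmgb2. In bFGF it read 3.65, 3.99 and 3.73 in Control, 5.22, 5.18 and 5.11 with Neurog2, 4.97, 5.35 and 5.52 with Neurog2+Hmgb2, and 4.04, 4.15 and 3.74 with Hmgb2. No library with Neurog2 was below 4.62 and none without it above 4.15. The differences were 1.11 ± 0.19, 1.44 ± 0.19, 1.38 ± 0.19 and 1.49 ± 0.19 in the order of the comparisons above. The first of these fell to 0.95 without EGF+bFGF Neurog2 replicate 1, under the limit. The site near Ppp1r3a, a glycogen-targeting subunit of protein phosphatase 1 (chr6:14409760-14410250, 345 kb), gained 1.09 ± 0.18, 1.65 ± 0.18, 1.35 ± 0.18 and 1.51 ± 0.18, and the first fell to 0.86 without EGF+bFGF Neurog2 replicate 2 and to 1.00, just under the limit, without Control replicate 3. The Arl6ip6 site (chr2:53436975-53437818, 245 kb) gained 1.66 ± 0.22, 1.77 ± 0.22, 1.05 ± 0.22 and 1.50 ± 0.22, and the bFGF Neurog2 value fell to 0.86 without Control replicate 2 and to 0.90 without Neurog2 replicate 3.

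**Figure D3:**
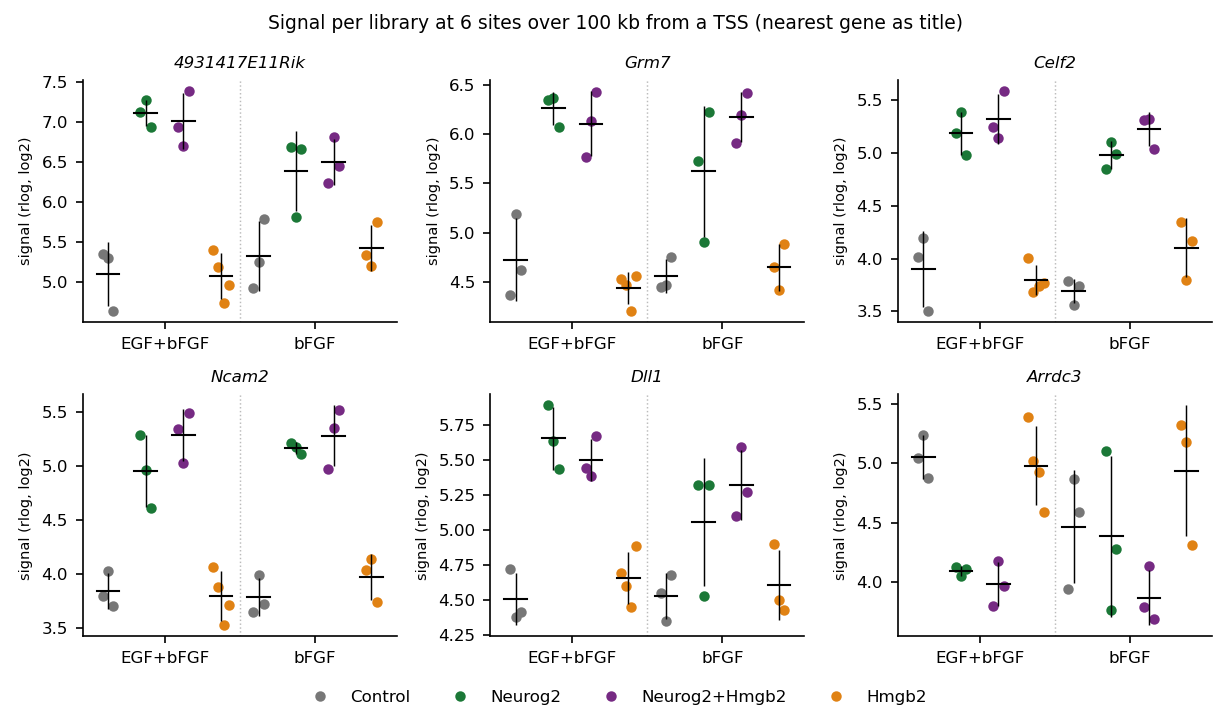
Signal (y axis, rlog, log2) of every library at 6 members, with EGF+bFGF groups left and bFGF groups right of the dotted line, the horizontal bar at the group mean and the vertical bar its SD. At the 4931417E11Rik, Grm7, Celf2, Ncam2 and Dll1 sites the Neurog2 and Neurog2+Hmgb2 libraries of EGF+bFGF lie above all Control libraries, and at the Arrdc3 site below them.

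Other members with large gains lay in introns of long genes. The Kcnip4 site (chr5:49150241-49150934, 135 kb) is in an intron of Kcnip4, a subunit that tunes A-type potassium channels. In EGF+bFGF it read 3.51, 3.60 and 3.44 in Control, 5.04, 4.94 and 4.77 with Neurog2, and 4.82, 4.93 and 5.21 with Neurog2+Hmgb2. In bFGF it read 4.09, 3.65 and 4.00 in Control, 4.18, 4.73 and 4.88 with Neurog2, and 4.38, 5.14 and 4.93 with Neurog2+Hmgb2. It was called in EGF+bFGF, with gains of 1.40 ± 0.20 and 1.47 ± 0.20, and in bFGF the gains of 0.68 ± 0.20 and 0.90 ± 0.20 were under the limit. A site in an intron of Ptprn2, a protein of secretory granules (chr12:117261948-117262539, nearest TSS Rapgef5), gained 1.42 ± 0.19 and 1.60 ± 0.19 in EGF+bFGF and 1.13 ± 0.19 with Neurog2+Hmgb2 in bFGF. A site in an intron of Dpyd (chr3:119368896-119369491), whose nearest TSS is that of the neuronal splicing regulator Ptbp2, gained 1.58 ± 0.19 with Neurog2 in EGF+bFGF and 1.12 ± 0.19 in bFGF.

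The site of Ythdc2, a reader of methylated RNA, was among the strongest of the called members, at a mean level of 6.48 (chr18:45015288-45016355, 160.0 kb), and gained 1.16 ± 0.17, 1.16 ± 0.17, 1.23 ± 0.17 and 1.25 ± 0.17 in the 4 comparisons. The Lrriq3 site (chr3:155662122-155662783, 569 kb) gained 1.62 ± 0.29 and 1.40 ± 0.29 in EGF+bFGF and 1.28 ± 0.29 with Neurog2+Hmgb2 in bFGF, where its Neurog2 libraries at 5.73, 4.18 and 5.43 overlapped Control at 4.41, 4.14 and 4.35. The Thsd7b site (chr1:129005877-129006586, 267 kb) gained 1.54 ± 0.21 and 1.24 ± 0.21 in EGF+bFGF and had differences of 0.63 ± 0.21 and 0.92 ± 0.21 in bFGF, under the limit. The site of Trhde, an enzyme that degrades thyrotropin-releasing hormone (chr10:114318434-114319054, 482 kb), gained 1.19 ± 0.24 with Neurog2 in bFGF, a call lost without Control replicate 3 (1.12) or Neurog2 replicate 1 (0.96) or 3 (1.05).

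Losses past the limit were few. The site of Arrdc3, an arrestin-domain protein (chr13:80589229-80589760, 294 kb), read 5.04, 5.24 and 4.87 in EGF+bFGF Control, 4.13, 4.05 and 4.11 with Neurog2, 3.80, 4.18 and 3.97 with Neurog2+Hmgb2, and 5.39, 5.02, 4.93 and 4.59 with Hmgb2. In bFGF it read 3.94, 4.87 and 4.59 in Control, 5.10, 3.77 and 4.28 with Neurog2, 3.79, 4.13 and 3.69 with Neurog2+Hmgb2, and 5.32, 5.18 and 4.31 with Hmgb2. In EGF+bFGF the groups with Neurog2 lay below those without it, and in bFGF they overlapped. The loss with Neurog2+Hmgb2 in EGF+bFGF was -1.07 ± 0.27 (limma adjusted p = 0.016), a call lost without Control replicate 1 or 2 or Neurog2+Hmgb2 replicate 1 or 3 (-1.07, -0.98, -0.98 and -1.06).

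Other LASs also depended on single libraries. A 4931408C20Rik site (chr1:26559495-26559947) lost -1.04 ± 0.28 with Neurog2 in EGF+bFGF, a call lost without Control replicate 1 or 2 or Neurog2 replicate 1 or 3 (-0.94, -0.99, -0.70 and -1.05). A wholly repeat-masked site near Gm21863 (chr12:19243686-19244002) lost -1.71 ± 0.44 there, a call lost without Control replicate 2 or Neurog2 replicate 1 or 3 (-1.25, -1.62 and -1.49). In bFGF a second 4931408C20Rik site (chr1:26282610-26283534) read 5.83, 6.07 and 6.10 in Control and 5.25, 4.28 and 5.07 with Neurog2, a loss of -1.13 ± 0.21 that fell to -0.84 without Neurog2 replicate 2. None of the 5 LASs of the 4 comparisons was called in more than 1 of them.

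When all 12 libraries with Neurog2 were set against the 13 without it, 38 members were MASs (0.613%) and none was a LAS, where 0.254% and 0.00219% of all peaks were called. Libraries did not overlap at 27 of the 38. At the 4931417E11Rik site the libraries with Neurog2 read from 5.81 to 7.38 with a median of 6.75, and those without it from 4.64 to 5.79 with a median of 5.26, and the pooled difference was 1.52 ± 0.12 (limma adjusted p = 3.51e-10). With no limit on size 1126 members were higher (18.2%, where 11.4% of all peaks were) and 1015 lower (16.4%, where 10.6% were). The higher members had a median difference of 0.48 and the lower ones of -0.37, and no lower member passed -0.78. The libraries did not overlap at 114 of the higher and 5 of the lower members. Neither these counts nor the 27 were made over all peaks, and they are no added support for the calls.

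The letters of the sites differed with the response. Of all members 29.6% had CAGATG or its complement in the central 250 bp. So did 28.4% of distal peaks, 12.3% of promoter peaks and 22.3% of the 40647 peaks of the 3 distance classes together. Among the MASs of the 4 comparisons the share was 69.1%, 69.7%, 81.8% and 75.4%, in the order used above. Of the 1126 members higher with Neurog2 it was 60.4%, and of the 1015 lower ones 14.2%. The E-box CAGCTG followed in part, at 22.9% of members, 24.9% of distal peaks and 21.7% of all peaks. It was in 32.5% of the Neurog2 MASs in EGF+bFGF and 12.1% of the lower members. The rarer E-box CATATG was in 5.9% of members, 4.6% of distal peaks and 3.5% of all peaks. It was in 10.6%, 13.4%, 9.1% and 17.4% of the MASs of the 4 comparisons and 3.0% of the lower members. Any E-box, CANNTG, which includes all of these, was in 80.6% of members, 78.3% of distal peaks and 70.2% of all peaks. It was in 95.1% of the Neurog2 MASs in EGF+bFGF. A match is a run of letters in the window and not a measured binding site.

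The AP-1 letters TGANTCA went the other way. They were in 34.5% of members, 31.5% of distal peaks, 8.7% of promoter peaks and 23.1% of all peaks. They were in 8.9% of the Neurog2 MASs in EGF+bFGF, 18.5% of those of Neurog2+Hmgb2 there and 20.3% of those of Neurog2+Hmgb2 in bFGF. Of the 22 MASs of Neurog2 in bFGF 40.9% had them. Of the lower members 43.7% had them and of the higher ones 17.8%. The TEAD letters GGAATG were in 23.7% of members, 22.2% of distal peaks, 10.4% of promoter peaks, 17.8% of all peaks and 34.1% of the lower members. The octamer ATGCAAAT, bound by POU factors, was in 2.9% of members, 1.8% of distal peaks and 1.6% of all peaks. It was in 4.9% and 5.9% of the Neurog2 and Neurog2+Hmgb2 MASs in EGF+bFGF, and 0 of 22 and 1 of 69 of those in bFGF. The CTCF core was in 1.0% of members, 2.4% of distal peaks and 1.6% of all peaks. The 224 promoter and distal MASs of Neurog2 in EGF+bFGF had CAGATG in 73.7%, AP-1 in 6.2%, CAGCTG in 48.2%, CAGGTG in 17.9% and the octamer in 2.2%, against 69.1%, 8.9%, 32.5%, 11.4% and 4.9% of the 123 members.

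The difference was larger where the window held more copies of CAGATG. The median pooled Neurog2 difference was -0.09 in the 4365 members without a copy, 0.09 in the 1517 with 1, 0.30 in the 272 with 2 and 0.56 in the 42 with 3 or more. Neurog2 in EGF+bFGF had 38, 55, 21 and 9 MASs in these classes (0.871%, 3.63%, 7.72% and 21.4%), and 17, 35, 13 and 4 of Neurog2+Hmgb2 in bFGF. Of the members without a copy 446 were higher and 871 lower, and of those with 3 or more 32 were higher and none was lower. The 4931417E11Rik and Kcnip4 windows belong to the last class, with 3 copies each, and the Arl6ip6 window has none, its 2 copies lying in the flanks of the peak. The classes also differed in mean level, with medians of 4.29, 4.11, 4.12 and 3.72 from no copy to 3 or more. In the lowest of the 4 equal bins of Control level 409 members were higher with Neurog2 and 103 lower. In the highest bin 177 were higher and 378 lower. The part of level in the rise with copies was not tested.

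Both motifs together split the members further. The 1218 members with CAGATG and no AP-1 match had a median pooled difference of 0.20 and 76 MASs of Neurog2 in EGF+bFGF. The 613 with both had 0.01 and 9, the 2843 with neither had -0.05 and 36, and the 1522 with AP-1 only had -0.16 and 2. Of the 22 MASs of Neurog2 in bFGF, 8 had both, among them the Celf2, Ncam2 and Ppp1r3a sites printed above. These are descriptions across sites of the same libraries and carry no test.

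**Figure D4:**
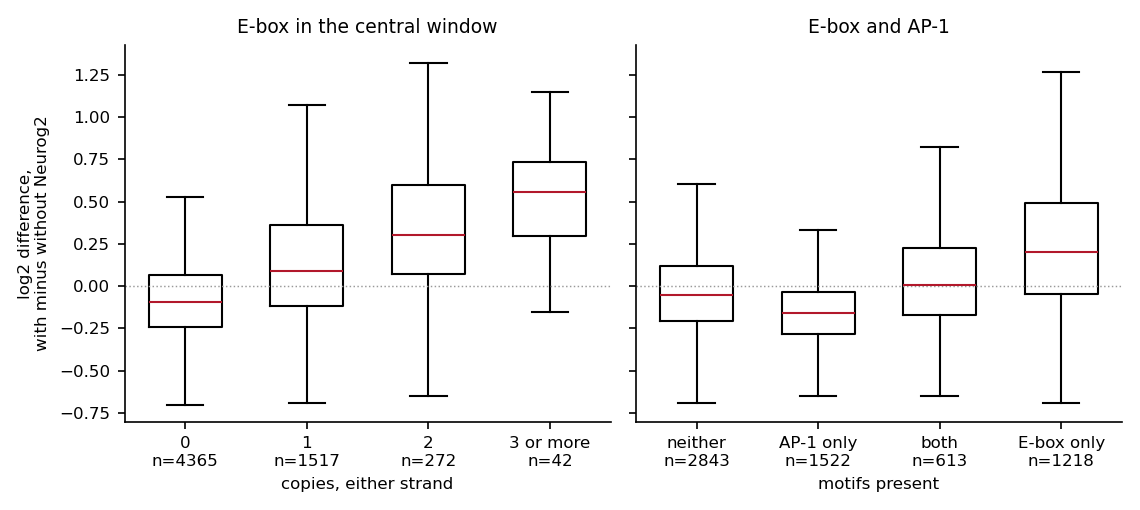
Log2 difference of the 12 libraries with and 13 without Neurog2 (y axis) for the members, by copies of the CAGATG E-box in the central window (left) and by presence of the E-box and AP-1 letters (right), with boxes for the quartiles, a line for the median and whiskers to 1.5 times the box height. The medians rise from -0.09 without a copy to 0.56 with 3 or more, and from -0.16 with AP-1 only to 0.20 with the E-box only.

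MASs of Neurog2 in EGF+bFGF were found at all distances and in all places but exons. Of these 42 lay within 200 kb (1.42% of the members there), 68 from there to 500 kb (2.84%) and 13 beyond (1.54%). By place 91 were outside all genes (2.24%), 21 in an intron of a protein-coding gene (1.78%), 7 in a non-coding gene (1.11%) and 4 within 1 kb of a non-coding TSS (1.27%). Split into 4 equal bins by their level in the Control libraries, from low to high, the members held 31, 37, 35 and 20 of these MASs and 19, 34, 12 and 4 of those of Neurog2+Hmgb2 in bFGF. As the Control level enters both the bins and the difference, the fall in the last bins is partly fixed by this choice. The MASs were wider than the members in general, with a median of 546 bp for Neurog2 in EGF+bFGF.

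The opened sites were scattered. The 123 MASs of Neurog2 in EGF+bFGF were in 112 intervals, of which 10 held over 1. They made up 15.8% of the 778 members of these intervals. As the intervals were taken because they held a call, this share is above that of all members by that choice. For Neurog2+Hmgb2 in bFGF the 69 MASs were in 67 intervals, of which 2 held over 1. For Neurog2 in EGF+bFGF the most in 1 interval were 3 of 7 members between Rack1 and Sgcd. That comparison called 2 of 6 between Lrriq3 and Negr1 and 2 of 5 between Arl6ip6 and Rprm. In intervals rich in members the counts were small, where 1.99% of all members were called, and a difference between intervals was not tested. Neurog2 in EGF+bFGF called 2 of 23 members between Ptprn2 and Rapgef5, 2 of 19 between Adgrl3 and Igfbp7 and 1 of 27 between Zeb2 and Acvr2a. It called none of 25 between Efnb2 and Slc10a2 and none of 21 between Gsdmc and Myc.

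Lists of genes by role show which genes neighbour the members. Of 43 neurogenic transcription factors and Notch ligands, 14 were the nearest gene of 39 members, of which 3, 2, 0 and 0 were MASs in the 4 comparisons, and 12 were higher and 3 lower in the pooled one. Over all members the shares called were 1.99%, 1.92%, 0.355% and 1.11%, and 18.2% were higher and 16.4% lower, and the lists below are to be read against these. The site of the Notch ligand Dll1 (chr17:15247847-15248416, 120.0 kb), which lies within 1 kb of a non-coding TSS and has 2 copies of CAGATG in its window above, read 4.72, 4.38 and 4.41 in EGF+bFGF Control and 5.89, 5.63 and 5.44 with Neurog2. With Neurog2+Hmgb2 there it read 5.44, 5.38 and 5.67, and in bFGF it read 4.55, 4.35 and 4.68 in Control, 5.32, 4.53 and 5.32 with Neurog2, and 5.10, 5.59 and 5.27 with Neurog2+Hmgb2. The gain with Neurog2 in EGF+bFGF was 1.15 ± 0.19, the bFGF groups overlapped for Neurog2 at 0.53 ± 0.19, and with Neurog2+Hmgb2 the values were 1.00 ± 0.19, just under the limit, and 0.79 ± 0.19. The site of Pou3f2, a POU factor of cortical neurons (chr4:22835206-22836361, 347 kb), gained 1.23 ± 0.23 with Neurog2 and 1.17 ± 0.23 with Neurog2+Hmgb2 in EGF+bFGF. The second value was 0.95, under the limit, without Control replicate 3.

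Members also lay nearest to genes of neuronal function. Of 74 neural adhesion genes 61 had 385 members, with 7, 7, 2 and 6 MASs, and 77 members were higher and 66 lower. Of 63 neuronal ion channel and receptor genes 43 had 134 members, with 5, 5, 3 and 5 MASs at the genes Grm7, Kcnip4, Grik2, Gria2 and Kcnh1, and 28 were higher and 23 lower. Of 37 axon guidance genes 26 had 140 members, with 3, 3, 0 and 3 MASs, and 27 were higher and 25 lower. The share called in EGF+bFGF with Neurog2 was 3.73% for channels and receptors, 2.14% for guidance and 1.82% for adhesion, against 1.99% of all members. The Rgma site (chr7:73186513-73186943), of a repulsive guidance molecule, gained 1.09 ± 0.16 and 1.06 ± 0.16 in EGF+bFGF and 1.13 ± 0.16 with Neurog2+Hmgb2 in bFGF. The Neurog2+Hmgb2 gain in EGF+bFGF was 0.95 without EGF+bFGF Neurog2+Hmgb2 replicate 3. The site of the ephrin receptor gene Epha7 (chr4:29094194-29094784) gained 1.28 ± 0.19 with Neurog2+Hmgb2 in EGF+bFGF and 1.09 ± 0.19 in bFGF, where it was 0.98 without Control replicate 2. At the protocadherin gene Pcdh20 a member 463 kb away (chr14:88934449-88934882) gained 1.07 ± 0.17 with Neurog2+Hmgb2 in bFGF.

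Of 57 glial and progenitor transcription factors 34 had 147 members, with 1, 2, 0 and 2 MASs, and 15 were higher and 22 lower. Of 56 growth factor signalling and AP-1 genes 21 had 86 members, with 0, 1, 0 and 0 MASs, and 13 were higher and 17 lower. The 1 was in an intron of Fgf14, an intracellular regulator of sodium channels (chr14:123990642-123991063), which gained 1.09 ± 0.20 with Neurog2+Hmgb2 in EGF+bFGF, or 0.99 without Neurog2+Hmgb2 replicate 3. The site of Tshz1, a zinc finger factor (chr18:83949939-83950616), gained 1.05 ± 0.25 with Neurog2+Hmgb2 in EGF+bFGF and 1.12 ± 0.25 in bFGF. The first call was lost without Control replicate 3 (0.99) or Neurog2+Hmgb2 replicate 2 (0.98) or 3 (0.92), and the second without Control replicate 3 (0.98) or Neurog2+Hmgb2 replicate 2 (1.03). No list had a LAS.

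The next question was whether the cultures differed in the response. Of the 123 Neurog2 MASs of EGF+bFGF 16 (13.0%) were also called in bFGF, which is 72.7% of the 22 called there. All 123 had a positive difference in bFGF, with a median of 0.63 and a lowest value of 0.05, and all 22 had one in EGF+bFGF, with a median of 1.11. For Neurog2+Hmgb2, 37 members were called in both, 31.1% of the 119 of EGF+bFGF and 53.6% of the 69 of bFGF. The 119 had a median of 0.88 in bFGF and the 69 a median of 1.03 in EGF+bFGF. As the sites were chosen for a large difference in 1 culture, a smaller value in the other is partly fixed by that choice.

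**Figure D5:**
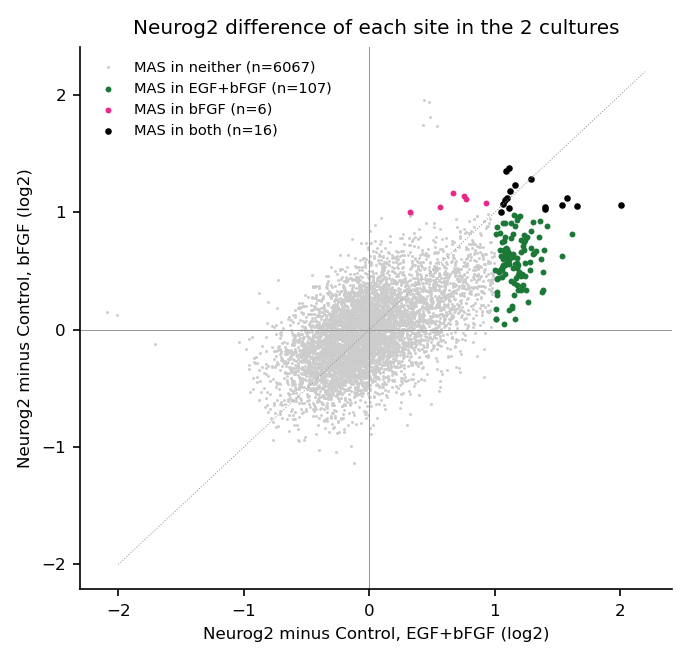
Neurog2 minus Control difference of each member in EGF+bFGF (x axis, log2) and in bFGF (y axis, log2), with colours for members called MAS in EGF+bFGF only (107), bFGF only (6), both (16) or neither (6067), and a dotted line of equal differences. All 123 members called in EGF+bFGF lie above 0 on the y axis, and most of them below the line.

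The test of the difference itself found no member. The interaction of culture with the Neurog2 difference was past the threshold at 0 of 6196 members, with 489 at an unadjusted p under 0.05 (7.89%, against 6.27% of all peaks) and a lowest limma adjusted p of 0.392. For Neurog2+Hmgb2 it was 0 members, with 185 at an unadjusted p under 0.05 (2.99%, against 3.01%). None of all peaks was called in either (0.0%). The smallest p was at a Ptprn2 site (chr12:116919668-116920456, in an intron), which read 4.47, 4.59 and 4.72 in EGF+bFGF Control and 5.56, 5.54 and 5.43 with Neurog2, and 5.07, 4.88 and 5.01 in bFGF Control and 4.67, 4.21 and 4.88 with Neurog2. The Neurog2 libraries were above Control in EGF+bFGF and below it in bFGF, where the groups met at 4.88, and the difference of differences was -1.32 ± 0.25. The Cep128 site (chr12:90915816-90916741) followed at -1.12 ± 0.23, also at an adjusted p of 0.392.

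Hmgb2 was then examined alone and on top of Neurog2. Hmgb2 against Control called no member in EGF+bFGF or in bFGF, where 0.00219% of all peaks were MASs in each and 0.0% LASs, and 595 and 197 members had an unadjusted p under 0.05 (9.60% and 3.18%, against 9.17% and 3.99% of all peaks). The median difference over the members was 0.09 in EGF+bFGF, where that of promoter peaks was -0.09, and 0.04 in bFGF. The members with the smallest p in EGF+bFGF were a Reep3 site (chr10:65753488-65753779) at 0.69 ± 0.16 and an Etaa1 site (chr11:18070612-18071327) at 0.70 ± 0.18, each with a limma adjusted p of 0.529. The Reep3 site read 3.04, 2.83 and 2.78 in Control and 3.48, 3.81, 3.75 and 3.24 with Hmgb2. In bFGF they were an Irx3 site (chr8:91937227-91937588) at 0.72 ± 0.18 and an Epha7 site (chr4:28176783-28177125) at -0.88 ± 0.23, with adjusted p values of 1. Over all 8 groups Hmgb2 called no member either, where 0.0307% of all peaks were MASs, with 715 members at an unadjusted p under 0.05 (11.5%, against 10.1% of all peaks).

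Neurog2+Hmgb2 against Neurog2 called no member in EGF+bFGF, where 0.0153% of all peaks were MASs, and none in bFGF, where 0.0% were. An unadjusted p under 0.05 was found for 438 and 442 members (7.07% and 7.13%, against 5.00% and 7.12% of all peaks), and the median difference was 0.06 and 0.07. In EGF+bFGF the smallest p was at a site of Dach1, a nuclear factor of progenitors (chr14:97403228-97403727), which read 4.56, 4.59 and 4.65 with Neurog2 and 5.38, 5.32 and 5.40 with Neurog2+Hmgb2. The groups did not overlap, the difference was 0.77 ± 0.17, and the limma adjusted p was 0.396. In bFGF it was at a Grb14 site (chr2:64522195-64522622), which read 4.55, 4.01 and 4.23 with Neurog2 and 5.05, 5.48 and 4.86 with Neurog2+Hmgb2, a difference of 0.87 ± 0.19 at an adjusted p of 0.448. The 69 against 22 MASs in bFGF therefore stand beside no member at which the direct difference was called.

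Side by side, the comparisons that share their Control libraries gave the following. The 123 Neurog2 MASs of EGF+bFGF had a median difference of 1.15 with Neurog2 and 1.06 with Neurog2+Hmgb2 in that culture, 0.63 and 0.86 in bFGF, and 0.04 and 0.07 with Hmgb2 in EGF+bFGF and bFGF. The 22 Neurog2 MASs of bFGF had 1.11 and 1.17 in EGF+bFGF and 1.09 and 1.16 in bFGF. The 69 Neurog2+Hmgb2 MASs of bFGF had 1.06 and 1.03 in EGF+bFGF, and 0.87 and 1.13 in bFGF. At sites named for the last group, the Dusp10 site (chr1:183793819-183794510) gained 0.93 ± 0.22 with Neurog2 and 1.53 ± 0.22 with Neurog2+Hmgb2 in bFGF, and the Bckdhb site (chr9:84548049-84548596) 0.81 ± 0.22 and 1.53 ± 0.22. The direct difference was 0.60 ± 0.22 and 0.72 ± 0.22, with limma adjusted p values of 0.618 and 0.591. Each set of MASs, and the Dusp10 and Bckdhb sites, were chosen for a large difference in 1 comparison. A larger value in that comparison is therefore partly fixed by the choice.

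The cultures were then compared with each other. Between the Control libraries of the cultures no member was called, where 0.0% of all peaks were, with 493 members at an unadjusted p under 0.05 (7.96%, against 7.36% of all peaks) and a median difference of 0.02. Over all 8 groups none passed the limit of 1 either, where again 0.0% of all peaks did, and 1661 members had an unadjusted p under 0.05 (26.8%, against 18.96% of all peaks). With no limit on size 50 members were higher in bFGF (0.807%) and 14 lower (0.226%), where 0.342% and 0.177% of all peaks were. The higher members were weak, with a median level of 3.64, and the lower ones stronger, with 5.71. The libraries of the cultures overlapped at all 64, and leaving out single libraries moved the counts between 0 and 430 and between 0 and 277, so that they rest on the set of libraries.

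The smallest p among these belonged to a second Ptbp2 site (chr3:119507755-119508104, 216 kb), which was outside all genes. The 12 bFGF libraries read from 3.25 to 4.64 with a median of 3.80, and the 13 EGF+bFGF libraries from 2.95 to 3.62 with a median of 3.24, a difference of 0.61 ± 0.10 (limma adjusted p = 0.019). The largest gain in bFGF was at a Fat1 site (chr8:44347427-44348090), of an atypical cadherin, at 0.69 ± 0.16, and the largest loss at the distant Pcdh17 site, at -0.47 ± 0.11. The Irf2bp2 site (chr8:126735523-126736943) lost -0.41 ± 0.08. The AP-1 letters were in 38.0% of the 50 higher members and in 3 of the 14 lower ones (21.4%), where 34.5% of all members had them. A difference between these shares was not tested.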

How the data were processed

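ATAC-seq was measured in 25 libraries. According to the labels and methods, the authors checked reads with FastQC, trimmed them with cutadapt, aligned them to mm10 with Bowtie2, called peaks per library with Genrich with mitochondrial reads and PCR duplicates removed, merged the peaks and counted reads. The deposited values are log2 values that the deposit names rlog, a transformation of DESeq2, and the authors' processing notes list DESeq2 1.36.0 with no role. Library depth is therefore unknown, and differences at weakly covered peaks are shrunken. The start, end and width of each peak were deposited in other columns. The starts were read as counting from 0, which is an assumption, and were converted to count from 1. The ends were kept, and width was taken as end minus deposited start.

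Distances, places and bases were read from the GENCODE M21 annotation and the GRCm38 genome (Python 3.11.15, pysam 0.24.0), and copies were found with blastn 2.17.0. One model in limma 3.58.1 (R 4.3.3), with 8 group means and a mean-variance trend, gave 17 residual degrees of freedom. It was tested on simulated data. Peaks with an adjusted p under 0.05 over 45672 peaks and a log2 difference beyond 1 were called. Motifs were counted in the central 250 bp on both strands. Cell type markers were read at promoter peaks.

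Sites were named by rule: the largest calls of each comparison, members called in all 4 comparisons, the highest, lowest and farthest, up to 2 per gene list, and the 2 smallest p where nothing was called. The members, gene lists and alternatives were chosen with earlier results of these data known. Alternatives were another distance limit, width, TSS set, scaling, weighting, filter and replicate block, and each library left out. Single sites and a sequence window named by this rule are not reported here.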

Additional observations from a re-analysis of the deposited data

Results flagged for a closer look

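At 5 of the named sites every library with the factor moved one way from Control in EGF+bFGF and the other way in bFGF. They were named for their small p in comparisons without calls, which include the interaction and that of the Control groups of the 2 cultures. A choice by either of these favours opposite signs. Control read 3.55 to 3.65 in EGF+bFGF and 4.29 to 4.41 in bFGF at the Palmd site. It read 4.32 to 4.55 and 3.60 to 3.70 at the Tbc1d1 site, and 3.58 to 3.78 and 4.26 to 4.29 at the Glis3 site. At the Cep128 and Pcdh15 sites the Control groups overlapped. The Palmd site (chr3:117155234-117155681) had differences of 0.26 and -0.61 with Neurog2 and of 0.42 and -0.44 with Neurog2+Hmgb2, in EGF+bFGF and bFGF. The Tbc1d1 site (chr5:64437699-64438107) had -0.26 and 0.33 with Neurog2, and -0.41 and 0.43 with Neurog2+Hmgb2. The Cep128 site had 0.30 and -0.81 with Neurog2. The Glis3 site (chr19:28165926-28166351) had 0.29 and -0.60, and the Pcdh15 site (chr10:72988425-72989056) 0.13 and -0.40, with Neurog2+Hmgb2. Whether these opposite signs are more than the spread was not tested by the sign rule itself. The libraries with Hmgb2 alone lay on the same side of Control at 3 of them, from 3.93 to 4.24 against 3.55 to 3.65 at the Palmd site in EGF+bFGF, from 3.98 to 4.31 against 3.60 to 3.70 at the Tbc1d1 site in bFGF, and from 3.68 to 3.81 against 4.26 to 4.29 at the Glis3 site in bFGF. In the limma interaction no member had an adjusted p under 0.05, and the lowest was 0.392.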

How the results depend on the processing

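Leaving out each library in turn moved the counts of members called. In EGF+bFGF Neurog2 gave 105 to 199 MASs and 0 to 19 LASs, and Neurog2+Hmgb2 65 to 196 and 0 to 15. In bFGF Neurog2 gave 14 to 46 MASs and 0 to 12 LASs, and Neurog2+Hmgb2 68 to 114 and 0 to 2. The pooled Neurog2 comparison gave 33 to 56 MASs, 1016 to 1193 members higher and 817 to 1162 lower, and the pooled culture comparison 0 to 430 higher and 0 to 277 lower. In a fit with a block for replicate numbers the LASs of Neurog2 were 4 in EGF+bFGF and 2 in bFGF, and no other count moved by over 1.5 times. Whether the numbers pair the libraries was not settled. The deviations from the group means had a median correlation of 0.05 in 84 same-numbered pairs (-0.47 to 0.47) and of -0.05 in 189 other pairs. Of the same-numbered pairs 32 had a correlation over 0.1, and 7 of 25 libraries correlated best with their own number.

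A limit of 200 kb left 81 and 75 MASs in EGF+bFGF (1 LAS each), 45 for Neurog2+Hmgb2 in bFGF, 631 higher and 532 lower members with Neurog2, and 9 lower in bFGF culture. Peaks of 500 bp or more left 76, 70 and 39 MASs, no Neurog2 LAS in EGF+bFGF, 464 higher and 489 lower with Neurog2, and 20 higher in bFGF. These 2 settings hold fewer members. Array weights, which give bFGF Neurog2 replicate 2 a weight of 0.31, gave 53 MASs of Neurog2 in bFGF and 66 in the pooled comparison, LASs of 7, 1 and 4 (Neurog2 in EGF+bFGF, Neurog2+Hmgb2 there, Neurog2 in bFGF), and 154 higher and 132 lower in bFGF culture. With only the groups of each comparison there were 14 MASs of Neurog2 in bFGF, LASs of 4 and 2 for Neurog2 in EGF+bFGF and bFGF, 1 MAS of Neurog2+Hmgb2 over Neurog2 in bFGF, and 1 MAS and 3 LASs between the Control groups. Quantile normalization gave 1, 1 and 2 LASs in the order above and 1 and 0 culture calls, median centring 5 LASs of Neurog2+Hmgb2 in EGF+bFGF and 171 and 48 culture calls, a filter on low values 1 and 2 culture calls, and a fit without the mean trend 5 lower ones. With the TSS of the gene record only, which adds peaks near other TSSs, Neurog2+Hmgb2 in EGF+bFGF had 4 LASs and 1 MAS over Neurog2, and pooled Hmgb2 1 MAS. Without the copies and mitochondrial matches Neurog2 in EGF+bFGF had 1 LAS. Over the whole peak 44.5% of members had CAGATG and 45.7% AP-1. The median over libraries of the member median was 4.25, and 5.43 per kb. The cause of the other changes was not tested. Of 1745 values of named sites under other settings, 1676 kept direction and call, 50 lost the call, 19 gained it and none reversed.

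The depth behind the rlog values is unknown, and 3 libraries a group limit what the tests call.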
